A study of Mus musculus with 3 samples.

Results

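Mature neutrophils of the fetal mouse brain were chosen by their measured RNA counts in single-cell libraries. A cell belonged to them when it held at least 20 unique molecular identifier counts (UMIs) of S100a8 and at least 20 of S100a9. It also had to hold fewer than 20 UMIs of the secondary granule genes Ngp, Camp and Ltf together and at least 2 of the 5 maturity markers Retnlg, Mmp9, Mmp8, Cxcr2 and Csf3r. It had to hold 0 UMIs of P2ry12, Tmem119 and Mrc1, which mark microglia and border macrophages. By this rule 339 of 38212 kept cells were members, a kept cell being one with 300 or more genes seen and no more than 10% of its UMIs from mitochondria. The rule read the RNA itself, so the genes in it are described below without a test.

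The brains were those of E18.5 fetuses. The labels' protocols describe a Percoll gradient, a magnetic purification of CD11b+ cells, CD11b being a surface integrin of myeloid cells, and 10x Genomics 3' libraries. Each of the 3 groups has 1 library. The one named Ncr1-cre+Saline is called saline here, Ncr1-cre+polyIC is called poly(I:C), Gzmb-cko+polyIC is called Gzmb-cko, and values stand in this order. All of them carried Ncr1-cre, whose recombinase is made mainly by natural killer cells and their innate relatives. The third had the genotype Ncr1-cre;gzmbf/f, in which Gzmb, the gene of the cytotoxic protease granzyme B, carries floxed alleles. Poly(I:C), a mimic of viral double-stranded RNA, and saline were given to pregnant mice, and the sources used here do not state whether dam, fetus or both carried the genotype or how many fetuses were pooled. A Gzmb-cko library with saline was not analysed here. With nothing replicated, treatment and genotype cannot be tested or told apart from the library, and p-values are absent throughout. The intervals given are exact 95% intervals and cover counting error alone.

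Neutrophils are short-lived phagocytes made from granulocyte precursors, in the fetus mainly in the liver and later in the bone marrow. During maturation they fill primary, secondary and tertiary granules in turn, stop dividing, lose the transcripts of early granule proteins and gain the receptors that guide them to sites of damage. Mature cells carry little RNA and much of it encodes S100a8 and S100a9, the subunits of the alarmin calprotectin. In mice a family of stefins, small inhibitors of cathepsins encoded in a cluster on chromosome 16, is also abundant.

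The number of members was 62 in saline, 230 in poly(I:C) and 47 in Gzmb-cko, and these did not all answer to the name. Ccr2 and F13a1 were taken as monocyte markers, although F13a1 was also listed as a marker of border macrophages. They had a UMI in 23 and 25 of the 62 saline members and in 20 and 24 of the 230 poly(I:C) members. In Gzmb-cko they had a UMI in 13 and 12 of the 47 members. Cells with RNA of another type were therefore marked after the data had been seen. A cell was called mixed with at least 5 UMIs of monocyte markers (Ccr2, F13a1, Csf1r, Ms4a6c, Fn1 and Irf8 together), at least 5 of the complement genes C1qa, C1qb and C1qc, at least 5 of neuron markers, over 5% hemoglobin or over 2% of the choroid plexus transcript Ttr. By this measure 57 of 62, 43 of 230 and 19 of 47 members were mixed. The unmixed members numbered 5, 187 and 28, or 220 in all. The measures given in UMIs are met less easily by cells with few UMIs, and no saline barcode held fewer than 3133. Of members with at least 3133 UMIs, 5 of 62, 43 of 81 and 9 of 28 were unmixed, so the contrast between libraries was smaller at a common depth. Among immature neutrophils, which meet the same S100 and macrophage conditions but hold at least 20 UMIs of Ngp, Camp and Ltf, 52 of 167, 14 of 183 and 6 of 57 were mixed.

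**Figure D1:**
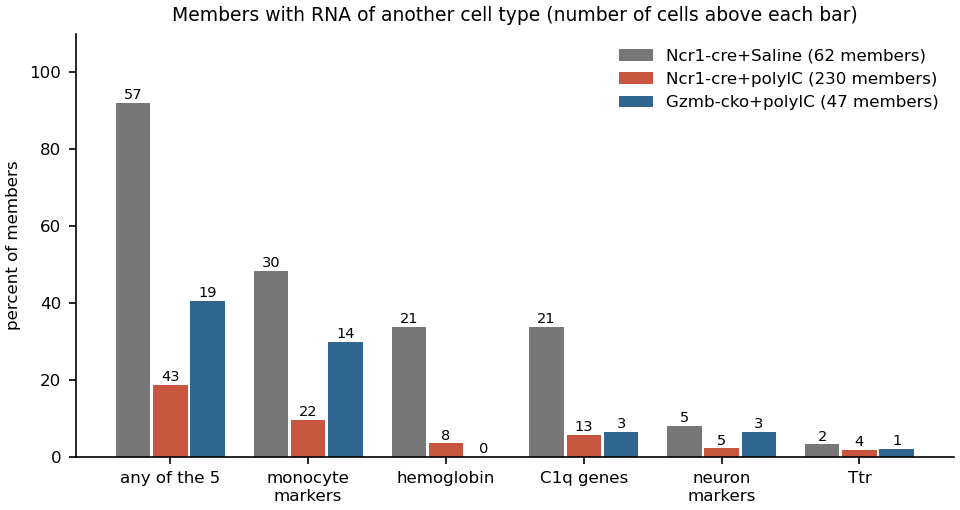
Percent of members in each library (y axis) with RNA of another cell type by any of 5 measures and by each alone (x axis, bars per library, number of cells above each bar). Mixed members made up 57 of 62 in saline, 43 of 230 in poly(I:C) and 19 of 47 in Gzmb-cko, and a cell can count under several measures. Of members with at least 3133 UMIs, the lower limit of the saline library, 5 of 62, 43 of 81 and 9 of 28 were unmixed.

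Monocyte markers were the most frequent of the 5, in 30, 22 and 14 members. Of those members, 18, 17 and 12 held 0 UMIs of Retnlg, a secreted resistin-like protein of mature neutrophils. Hemoglobin made up 34.9%, 7.29% and 0.0491% of all members' UMIs, and 0.473%, 0.189% and 0.0624% in the unmixed ones. The summed level of 7 erythroid markers was 349917, 73098 and 491 CPM, counts per 1000000 UMIs of the class,, and 4732, 1899 and 624 CPM without mixed cells. The 7 monocyte markers summed to 1793, 1684 and 3329 CPM in all members and to 304, 634 and 866 CPM in unmixed ones, where most of it was Ly6c2, which neutrophils also express. Of 6 natural killer and T cell markers, 0 had a UMI in members of any library.

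In the unmixed members the markers of the name were present together. Retnlg (chromosome 16, 48872621 to 48874496, plus strand, GRCm38) had a UMI in 5 of 5, 179 of 187 and 28 of 28 cells. Its median was 74 UMIs per cell in saline (18 to 126), 43 in poly(I:C) (0 to 200) and 57.5 in Gzmb-cko (3 to 194). In microglia, which should lack the gene, it was seen in 3.19%, 2.89% and 1.28% of cells at median depths of 4776, 5552 and 6029 UMIs, against median depths of 3608, 2369 and 2732 in the unmixed members. Cxcr2, the receptor for neutrophil-attracting chemokines, was found in 5 of 5, 169 of 187 and 25 of 28 cells. Mmp9, the gelatinase of tertiary granules, was found in 4 of 5, 165 of 187 and 25 of 28. Ccr2 was found in 1 of 187 poly(I:C) cells and in 0 of the 5 saline and 28 Gzmb-cko cells. The rule asked for 2 of the maturity markers and the removal of mixed cells for few monocyte UMIs, so these counts describe the choice of cells and do not check it. Results are given for unmixed cells as well as for all members.

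Members just inside and just outside the granule threshold were alike in most of the genes looked at. In poly(I:C), 23 members held 10 to 19 UMIs of Ngp, Camp and Ltf, with medians of 103 UMIs of Retnlg, 14 of Mmp8 and 36 of Lcn2. The 12 cells with 20 to 29 such UMIs, just outside, had medians of 65.5, 17 and 39. In saline the corresponding cells numbered 3 and 10, with median Retnlg of 68 and 77.5 UMIs, and in Gzmb-cko 0 and 3. At the other end, 45, 143 and 31 members held 0 UMIs of these granule genes.

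Facts of the libraries bear on every number of cells. They held 13820, 14887 and 15306 barcodes and 89295907, 85442198 and 105574073 UMIs, and no saline barcode had fewer than 3133 UMIs, whereas the other 2 libraries reached down to 500. Of the poly(I:C) members 149 of 230 (64.8%), and of the Gzmb-cko members 19 of 47 (40.4%), lay under 3133 UMIs, a range in which the saline library has no barcode. Among unmixed members these were 144 of 187 (77.0%) and 19 of 28 (67.9%). Gzmb and Ncr1 had 0 UMIs in the members of every library, so the floxed gene could not be checked in them; 3 counts would be 6.69, 3.76 and 13.9 CPM. In the whole libraries Gzmb had 61, 127 and 2 UMIs, in 4, 6 and 1 cells. Gzma and Ncr1, also among the natural killer and T cell markers, were lowest in Gzmb-cko too. Gzma had 183, 990 and 36 UMIs in 11, 17 and 2 cells, and Ncr1 had 8, 6 and 0 UMIs. The part of the number of captured natural killer cells in the Gzmb counts was not tested. Scrublet's own threshold marked 0, 336 and 0 barcodes, so the highest doublet scores were taken up to the expected share, which marked 9, 32 and 7 members, 8, 23 and 7 of them mixed. No barcode was shared between members of different libraries. Xist without Y-linked RNA was seen in 10, 37 and 9 members and Y-linked RNA without Xist in 6, 22 and 9, so each library held members of both kinds.

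Mature neutrophils took a larger share of kept cells in poly(I:C) than in either other library. They were 0.494% of kept cells in saline (62 of 12556, interval 0.379 to 0.633), 1.97% in poly(I:C) (230 of 11705, 1.72 to 2.23) and 0.337% in Gzmb-cko (47 of 13951, 0.248 to 0.448). Unmixed members alone were 0.0398% (0.0129 to 0.0929), 1.60% (1.38 to 1.84) and 0.201% (0.133 to 0.290). With the saline lower limit of 3133 UMIs set in all 3 libraries, unmixed members were 5 of 12556 (0.0398%), 43 of 8583 (0.501%, 0.363 to 0.674) and 9 of 11744 (0.0766%, 0.0351 to 0.145). The poly(I:C) interval lay above both others in each of these versions. The order of saline and Gzmb-cko was not the same throughout, since saline was higher for all members and lower for unmixed ones. A share of captured cells after a CD11b+ purification is not a number of cells per brain.

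**Figure D2:**
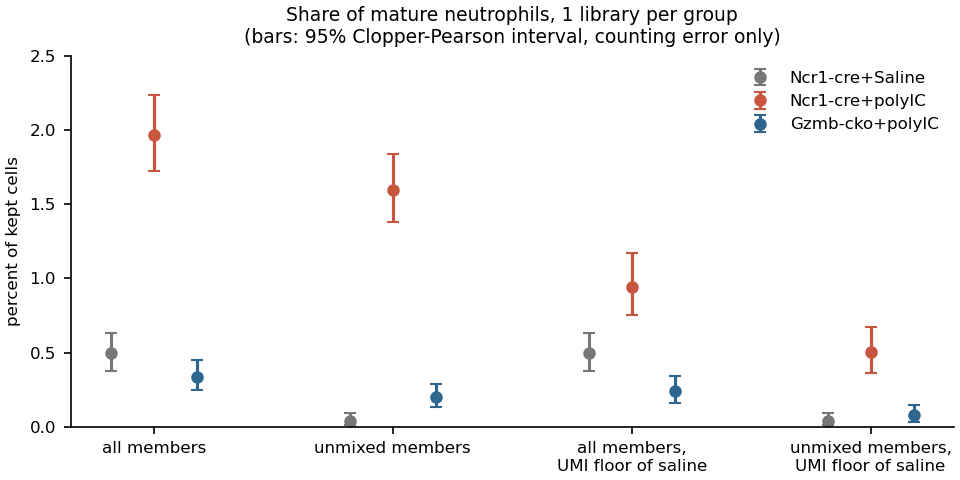
Share of mature neutrophils in percent of kept cells (y axis) for all and unmixed members, at each library's own depth and with the UMI floor of saline in all 3 libraries (x axis); points are single libraries and bars are 95% Clopper-Pearson intervals. The poly(I:C) library is highest in all 4 versions, from 1.97% for all members to 0.501% for unmixed members at the common floor.

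The mature share of all neutrophils followed the same order for unmixed cells and depended on the floor. Mature cells were 27.1% of mature and immature neutrophils together in saline (21.4 to 33.3), 55.7% in poly(I:C) (50.8 to 60.6) and 45.2% in Gzmb-cko (35.4 to 55.3). With the common floor these were 27.1%, 32.3% and 34.1%. Unmixed cells gave 4.17%, 52.5% and 35.4%, and 4.17%, 21.6% and 15.8% at the common floor. Immature neutrophils were 1.33%, 1.56% and 0.409% of kept cells. The lower number in Gzmb-cko than in poly(I:C) thus held for both stages.

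The RNA of unmixed mature neutrophils was dominated by alarmins and stefins. S100a8 and S100a9 together were 15.7%, 18.1% and 18.4% of their UMIs and the stefins 11.3%, 11.9% and 11.2%. Of secondary granule proteins, Lcn2, the siderophore-binding lipocalin, stood at 3560, 5133 and 5081 CPM, and the peptidoglycan-binding protein Pglyrp1 at 2475, 3159 and 3260 CPM. The primary granule genes Mpo and Elane had 0 UMIs in unmixed members of all 3 libraries, as did Gfi1, a transcription factor of granulocyte precursors. Among receptors, Cxcr2 stood at 738, 1027 and 1057 CPM, the complement receptor C5ar1 at 174, 417 and 306 CPM and the formyl peptide receptor Fpr1 at 130, 223 and 306 CPM. Csf3r, the receptor for granulocyte colony-stimulating factor, stood at 478, 864 and 764 CPM. The poly(I:C) and Gzmb-cko values of these genes lay within 1.5-fold of each other, and the saline values come from 5 cells with 23034 UMIs. One of these 5 differed from the rest: it held 7314 UMIs (31.8% of the 23034), 2886 genes, 15% ribosomal UMIs against 3.12% in the other 4, and all 3 UMIs of Mki67 and 5 of Top2a, genes of dividing cells.

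Mature and immature neutrophils were compared within each library, as a description, because the rule parts them on granule genes. A gene was past the fold when its CPM ratio was at least 1.5 with the interval excluding 1, among genes with at least 30 UMIs in both classes together and at least 20 CPM in the higher. In unmixed cells of both poly(I:C) libraries 370 of 1205 genes were past it in the same direction (30.7%), 258 higher (21.4%) and 112 lower (9.29%) in mature cells. Over all 3 libraries it was 139 of 1154 (12%), 105 higher (9.1%) and 34 lower (2.95%). With mixed cells kept it was 347 of 2014 (17.2%), 272 higher (13.5%) and 75 lower (3.72%), and the genes furthest apart were then the class II genes H2-Aa and H2-Eb1, of antigen-presenting cells, at 154, 68.9 and 463 CPM and at 73.6, 66.4 and 361 CPM in mature cells.

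Interleukin-1 beta RNA was higher in mature than in immature cells and was seen in a part of the mature ones. Il1b stood at 304, 403 and 395 CPM in unmixed mature cells and at 3.10, 1.10 and 0 CPM in unmixed immature cells. The ratio was 98.1-fold in saline, 367-fold in poly(I:C) on 1 immature UMI, and at least 40.2-fold in Gzmb-cko. In saline it rests on 2 mature UMIs in the cell of 7314 UMIs described above and 5 in the other 4 cells. Thinning to 2000 UMIs left out poly(I:C) cells with fewer, so 129 of the 187 unmixed mature cells and all 183 immature cells entered it. Among these Il1b was seen in 26 of 129 unmixed mature cells (20.2%) and in 0 of 183 immature cells. There 3 cells, the limit taken for a count of 0, would be 1.64% of cells with a UMI. Unthinned it was 76 of 187 (40.6%) and 2 of 183 (1.09%), at median depths of 2369 and 4745 UMIs, and 2.93% in microglia.

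Other secreted factors and receptors were also higher in mature cells. The chemokine Ccl6 was 16.2-, 30.8- and 35.1-fold higher in mature cells, at 478, 845 and 1032 CPM. Cxcl2, which attracts neutrophils through Cxcr2, was 29.4-, 6.0- and 20.1-fold higher. Il1r2, the decoy receptor that binds interleukin-1 without signalling, was 7.01-, 4.84- and 11.1-fold higher. Srgn, the core protein of granule proteoglycans, was 7.31-, 8.90- and 19.3-fold higher, and Marcks, a membrane-bound actin regulator, 19-, 13.8- and 16.5-fold higher. Clec4d, a C-type lectin that senses microbes, was 20.3-, 6.23- and 16.8-fold higher.

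**Figure D3:**
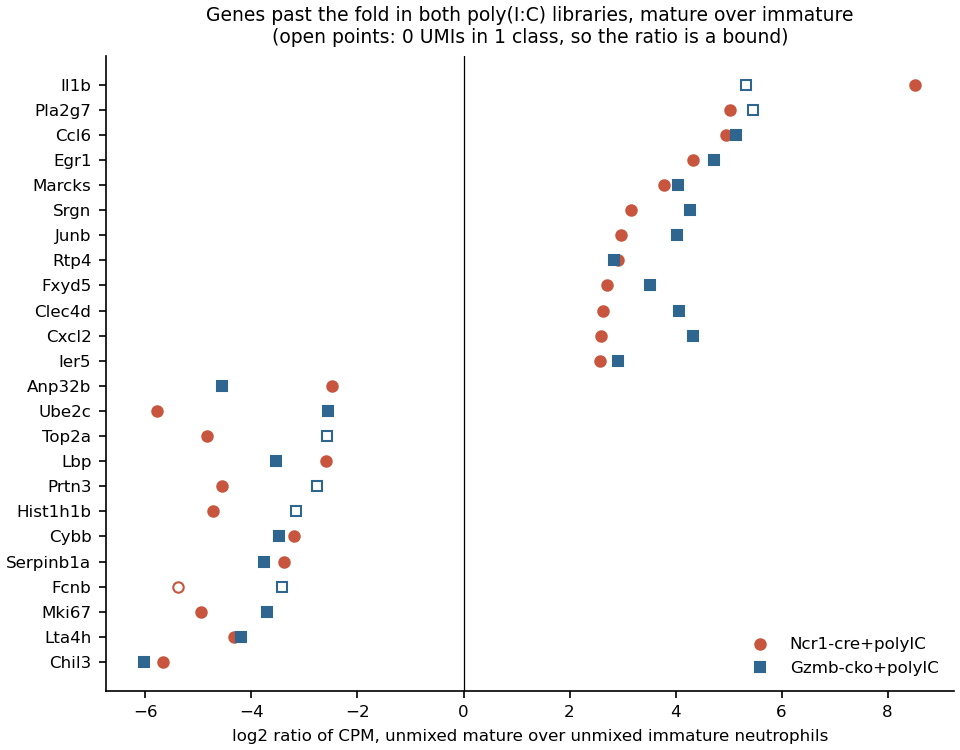
The log2 ratio of CPM in unmixed mature over unmixed immature neutrophils (x axis) for the genes with the largest smallest ratio over both poly(I:C) libraries, 12 in each direction (y axis); open points are bounds where 1 class had 0 UMIs. Il1b, Pla2g7 and Ccl6 lead the genes higher in mature cells and Chil3, Lta4h and Mki67 those lower.

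Among the genes lower in mature cells were several of granule filling and division. Chil3, a chitinase-like protein of the immature stage, stood at 217, 43.8 and 50.9 CPM against 2786, 2229 and 3299 CPM in immature cells. Fcnb, a ficolin of secondary granules, had 0 UMIs in unmixed mature cells of all 3 libraries and was at least 5.23-, 42.1- and 10.7-fold lower. Cybb, the catalytic subunit of the phagocyte oxidase, was 14-, 9.18- and 11.2-fold lower, although of 8 oxidase and nitric oxide genes tested in poly(I:C) 2 were lower and 2 higher. The protease inhibitor Serpinb1a was 11.5-, 10.4- and 13.6-fold lower. Lcn2 was 3.34-, 2.85- and 2.81-fold lower, so it parted the stages less than Chil3 did. Ly6g, the surface antigen used to sort mouse neutrophils, had a UMI in 37 of 129 unmixed mature cells (28.7%, 21.1 to 37.3) and in 81 of 183 immature cells, mixed ones included (44.3%, 36.9 to 51.8), of poly(I:C) after thinning. It was 8 of 21 against 33 of 57 in Gzmb-cko and 1 of 5 against 59 of 167 in saline. The intervals of these thinned classes overlapped in all 3 libraries. Mature cells under 2000 UMIs were left out by the thinning, and only 129 of 187 and 21 of 28 unmixed ones entered it in poly(I:C) and Gzmb-cko. The overlap therefore does not cover the shallower mature cells. Unthinned, Ly6g had a UMI in 53 of 187 (28.3%, 22.0 to 35.4) and 10 of 28 unmixed mature cells.

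Gene lists were read against 910 higher and 417 lower of 3668 genes tested in poly(I:C) and 315 higher and 169 lower of 1205 in Gzmb-cko. Of immediate early genes, which cells switch on within minutes of stimulation, 20 of 20 and 16 of 16 tested were higher in mature cells, with median log2 ratios of 1.85 and 2.57. Of cell cycle genes 14 of 16 and 8 of 8 were lower, with Mki67 at 4.17 CPM, or 2 UMIs, in mature and 129 CPM in immature poly(I:C) cells. Interferon-stimulated genes were higher in 23 of 27 and 7 of 11, growth and cytokine receptors in 16 of 18 and 5 of 7, and cytokines and NF-kB targets in 11 of 14 and 6 of 7. Secondary granule genes were lower in 13 of 18 and 11 of 17, with Ngp, Camp and Ltf among them by the rule. Mitochondrially encoded genes were higher in 7 of 11 and 10 of 11, and ribosomal protein genes lower in 23 of 77 and 54 of 76. The part of these in the other lists was not tested. In saline, with 5 unmixed mature cells, 9 of 15 immediate early genes were higher and 3 of 19 cell cycle genes were higher and 0 lower. The Mki67 and Top2a UMIs of saline mature cells all lay in the 1 cell described above.

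Among the unmixed members Retnlg itself varied widely. As CPM of the single cell it ran from 0 to 57339 in poly(I:C), with a median of 16509, and from 1570 to 59136 in Gzmb-cko, with a median of 24635. A limit of 10000 CPM, set after these values were seen, put 67 of 187 cells (35.8%, interval 29 to 43.1) and 7 of 28 (25%, 10.7 to 44.9) on the low side. These are ends of a range and not types: 15 and 5 cells lay within 20% of the limit. Retnlg-low cells held less RNA, with median totals of 1880 against 2736 UMIs in poly(I:C) and 1911 against 2961 in Gzmb-cko. Above 3133 UMIs only 4 of 43 and 1 of 9 unmixed cells were Retnlg-low, so this range lies largely under the floor of the saline library.

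**Figure D4:**
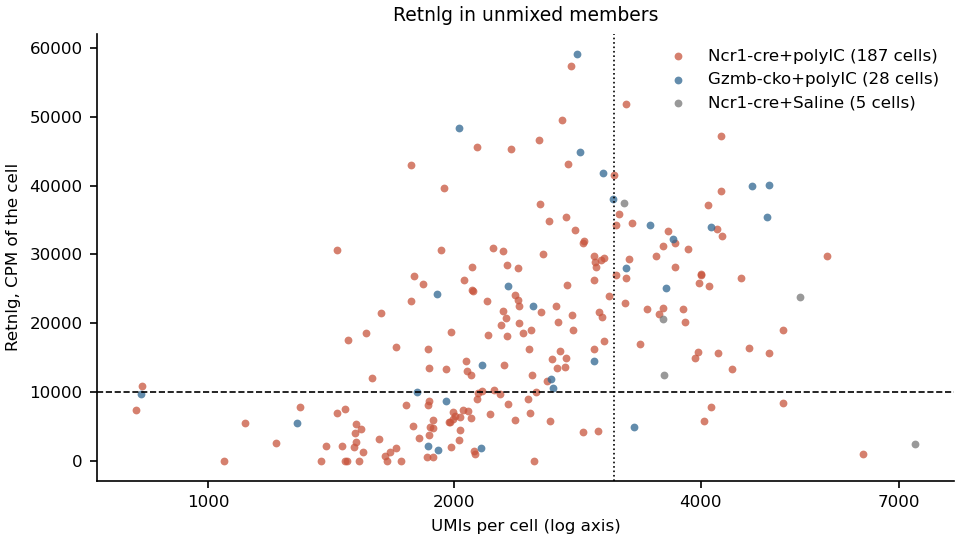
Retnlg in CPM of the cell (y axis) against UMIs per cell (x axis, log scale) in the 220 unmixed members, colored by library; the dashed line is 10000 CPM and the dotted line the saline UMI floor of 3133. Cells under the dashed line lie mostly to the left of the dotted line, 63 of 67 in poly(I:C).

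Interleukin-1 beta was higher where Retnlg was low, in both libraries. Il1b (chromosome 2, 129364570 to 129371139, minus strand) stood at 880 CPM in Retnlg-low and 213 CPM in Retnlg-high cells of poly(I:C), 4.13-fold (3.07 to 5.61). In Gzmb-cko it was 1505 against 169 CPM, 8.92-fold (4.08 to 20.6), on 20 and 11 UMIs. It had a UMI in 44 of 67 against 32 of 120 poly(I:C) cells and in 6 of 7 against 4 of 21 Gzmb-cko cells, although the low cells were the shallower ones. Il1r2 was 2.21- and 3.35-fold higher, and Csf3r, a gene of the rule, 2.26- and 4.29-fold. Pla2g7, which degrades platelet-activating factor, was 2.58- and 6.22-fold higher, and the AP-1 subunit Junb 1.84- and 3.23-fold.

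Late granule and surface genes were lower in the same cells. Ly6g (chromosome 15, 75155240 to 75159126, plus strand) stood at 29.3 against 315 CPM in poly(I:C), 10.7-fold (4.08 to 40.1), on 4 and 108 UMIs, and in Gzmb-cko on 1 and 32 UMIs. Lyz2, which encodes lysozyme, was 3.54- and 11.9-fold lower, the stefin Stfa3 3.48- and 4.99-fold, Lcn2 2.71- and 4.08-fold and Mmp8, the neutrophil collagenase and a gene of the rule, 2.32- and 2.99-fold. S100a8 and S100a9, which the rule also used, were 1.54- and 1.51-fold lower in poly(I:C). Of the granule genes of the rule, which bound the choice of these cells, 61 of 67 cells with low Retnlg held 0 UMIs, against 50 of 120 deeper cells with high Retnlg, and 7 of 7 against 10 of 21 in Gzmb-cko.

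In all, 20 genes were higher and 17 lower in Retnlg-low cells in both libraries under CPM and under a total without S100, stefin, mitochondrial, ribosomal and hemoglobin genes. This is read against 38 of 283 genes tested (13.4%) higher and 17 (6.01%) lower by CPM, and 20 (7.07%) and 29 (10.2%) by the other total. The 17 lower genes include Retnlg, which made the split, and Mmp8, S100a8 and S100a9 of the rule. Csf3r of the rule is among the 20 higher ones. In poly(I:C) alone 423 of 1760 genes were past the fold (24%), 335 higher (19%) and 88 lower (5%), and by the other total 195 higher (11.1%) and 165 lower (9.38%). In Gzmb-cko it was 87 of 283 (30.7%), 60 higher (21.2%) and 27 lower (9.54%), and by the other total 42 higher (14.8%) and 36 lower (12.7%). The median log2 ratio of all genes tested was 0.28 and 0.38 by CPM and 0.03 and 0.11 by the other total. Poly(I:C) cells of 1500 to 2500 UMIs, 47 low and 44 high, had median totals of 1884 and 2146. Among them the 20 and 17 genes kept their direction and 11 and 9 were past the fold. Csf3r was among the 11, and Retnlg and Mmp8 were among the 9. Il1b was then 2.59-fold higher and Lyz2 3.70-fold lower, both past the fold. Il1r2 at 1.51-fold and Junb at 1.38-fold higher and Lcn2 at 1.49-fold lower were not past it, and Ly6g, on 2 and 17 UMIs, had too few to be tested. Of the lists, immediate early genes were higher in 15 of 20 and 8 of 11 tested, and secondary granule genes lower in 9 of 14 and 4 of 6, of which Ngp, Ltf, Camp and Mmp8 in poly(I:C) and Mmp8 in Gzmb-cko are genes of the rule. Ribosomal protein genes were higher in 66 of 73 tested in poly(I:C) and in 5 of 28 in Gzmb-cko. Mitochondrially encoded genes were higher in 7 of 11 and 8 of 9, with median log2 ratios of 0.61 and 1.14, and the part of this in the other differences was not tested.

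Markers of other cell types differed between low and high cells too, and their part in these differences was not tested. In poly(I:C), low and high cells held 242 and 172 CPM of microglial markers, 2098 and 1820 CPM of erythroid markers, 3403 and 2526 CPM of choroid plexus markers and 308 and 764 CPM of monocyte markers. Of the monocyte sums, 147 and 668 CPM were Ly6c2, which neutrophils also express and which is itself among the genes lower in low cells. The other monocyte markers were thus not higher in high cells. Apoe, a macrophage transcript, stood at 763 and 321 CPM there and at 1279 and 705 CPM in Gzmb-cko.

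**Figure D5:**
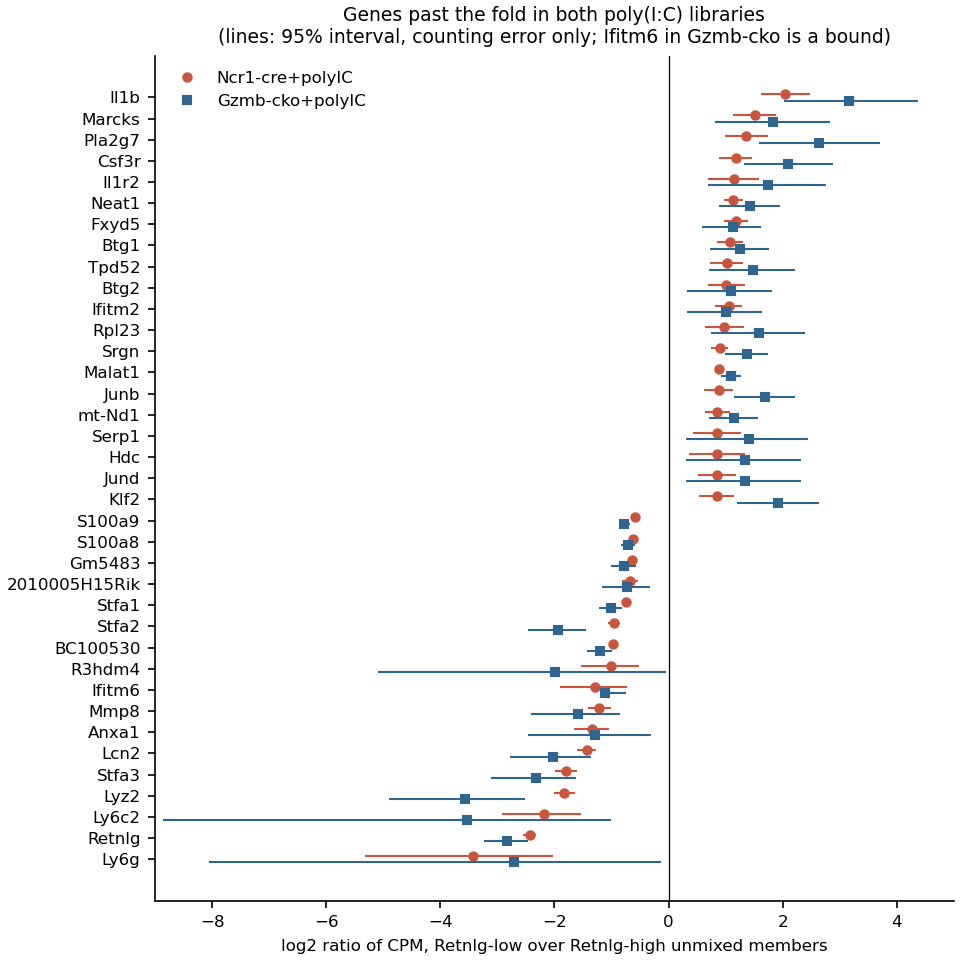
The log2 ratio of CPM in Retnlg-low over Retnlg-high unmixed members (x axis) for the 37 genes past the fold in both libraries (y axis), with 95% intervals as lines. Il1b leads the 20 genes higher in Retnlg-low cells and Ly6g the 17 lower ones, and wide lines in Gzmb-cko belong to genes with few UMIs in its 7 low cells. Retnlg, which made the split, is among the 17.

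The promoters of 2 genes from each end of this range are shown because the genes differ in level between cells of 1 class. They are RefSeq sequences of build GRCm38.p6, read in the direction of the gene, from 250 bases before the start of transcription up to the first exon. They were the first by rank among genes that the rule did not use, that had a promoter entry and whose window overlapped annotated exons by at most 30 bases, and capitals mark 3 motifs: TTGCNNAA, bound by C/EBP factors, on either strand, GAGGAA, bound by PU.1, on either strand, and TATAAA, the TATA box, on the gene's strand. Ly6g (chr15:75155011-75155239, plus strand) and its neighbour and paralog Ly6c2 (chr15:75111972-75112221, minus strand) were lower in Retnlg-low cells, and Il1b (chr2:129371140-129371389, minus strand) and the anti-proliferative gene Btg1 (chr10:96616751-96617000, plus strand) were higher.
Ly6g promoter: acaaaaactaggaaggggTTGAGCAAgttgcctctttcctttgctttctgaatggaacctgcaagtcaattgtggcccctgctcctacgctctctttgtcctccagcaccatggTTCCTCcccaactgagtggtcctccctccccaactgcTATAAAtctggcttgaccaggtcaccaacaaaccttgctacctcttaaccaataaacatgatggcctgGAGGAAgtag
Ly6c2 promoter: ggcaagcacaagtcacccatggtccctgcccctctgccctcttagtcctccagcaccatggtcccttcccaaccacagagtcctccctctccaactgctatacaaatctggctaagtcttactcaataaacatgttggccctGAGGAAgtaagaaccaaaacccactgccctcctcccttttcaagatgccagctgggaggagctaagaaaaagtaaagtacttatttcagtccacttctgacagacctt
Il1b promoter: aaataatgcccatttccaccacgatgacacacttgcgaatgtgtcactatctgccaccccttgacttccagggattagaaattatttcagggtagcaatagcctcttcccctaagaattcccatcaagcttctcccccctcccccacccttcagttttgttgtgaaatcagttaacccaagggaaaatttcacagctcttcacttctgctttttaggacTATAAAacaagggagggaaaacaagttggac
Btg1 promoter: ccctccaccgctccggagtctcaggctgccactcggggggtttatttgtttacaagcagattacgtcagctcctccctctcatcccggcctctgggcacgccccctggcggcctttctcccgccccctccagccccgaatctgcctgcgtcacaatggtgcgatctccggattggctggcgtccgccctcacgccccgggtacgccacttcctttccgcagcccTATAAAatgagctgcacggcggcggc

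The Ly6g window held 1 C/EBP, 2 PU.1 and 1 TATA match, and the Ly6c2 window 1 PU.1 match. The Il1b and Btg1 windows held 1 TATA match each, at 31 and 26 bases before the start. Of the 17 genes lower in Retnlg-low cells 14 had a promoter entry, and in the 250 bases before the start 7 of them (50%) held the C/EBP letters and 9 (64.3%) the PU.1 letters. Of the 20 higher genes 16 had an entry, with 2 (12.5%) and 4 (25%). The TATA letters were in 4 (28.6%) of the lower and 3 (18.8%) of the higher genes. Over 27025 genes with an entry the shares were 10.8% for C/EBP, 25.9% for PU.1 and 8.94% for TATA, counting a match at any listed start of a gene. Those 27025 are all genes with an entry and not only genes tested in these cells. The 14 lower genes include Retnlg, which made the split, and Mmp8, S100a8 and S100a9 of the rule, and the 16 higher ones Csf3r. The lower genes also include several stefins, which are close copies of each other, and a match is a run of letters and not a shown site.

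Gzmb-cko and poly(I:C) members were set side by side with and without the mixed cells, since the share of mixed cells differed. Among all members 639 of 3602 genes were past the fold (17.7%), 496 higher (13.8%) and 143 lower (3.97%) in Gzmb-cko, around a median log2 ratio of 0.16. Under TMM scaling, which shifts every log2 ratio here by -0.34, it was 189 higher and 499 lower, and under the total without abundant genes 421 and 203. Without mixed members 124 of 1975 genes were past the fold (6.28%), 49 higher (2.48%) and 75 lower (3.8%), with a median log2 ratio of -0.10. At the common floor, with 43 and 9 cells, it was 80 of 730 (11%), 46 higher (6.3%) and 34 lower (4.66%).

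Ribosomal protein genes and interferon-stimulated genes were counted in both sets. Ribosomal protein genes were higher in Gzmb-cko in 73 of 77 tested among all members, with a median log2 ratio of 0.87, and in 0 of 73 among unmixed members, with 6 lower and a median of -0.13. Interferon-stimulated genes were higher in 15 of 37 and lower in 1 among all members, median 0.65, and higher in 3 and lower in 3 of 23 among unmixed ones, median 0.16. Zbp1, a sensor of viral nucleic acid, led the named genes of all members at 28.8 CPM in poly(I:C) and 148 CPM in Gzmb-cko, 5.14-fold (2.92 to 9.20), and had 0 and 1 UMIs in the unmixed members. Plac8 was 634 against 2098 CPM, 3.31-fold higher (2.91 to 3.76), and in unmixed members 98.1 against 25.5 CPM, on 47 and 2 UMIs. Monocyte markers summed to 1684 and 3329 CPM in all members of these libraries and to 634 and 866 CPM in the unmixed ones. Cell cycle genes were higher in 8 of 16 tested and nuclear respiratory chain genes in 15 of 37 among all members, and in 0 of 3 and 1 of 30 among unmixed members.

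Genes of inflammation and granules were then compared in unmixed Gzmb-cko and poly(I:C) cells. Of 12 alarmins and stefins and 8 chemoattractant receptors tested, 0 were past the fold, beside 6.28% of all genes tested, so these counts say little about the groups. S100a8, S100a9 and Cxcr2 among them are genes of the rule, as are Retnlg, Mmp9, Mmp8 and Csf3r, and are not read here. Il1b stood at 403 and 395 CPM, a ratio of 0.980 (0.648 to 1.44). Of 14 secondary granule genes, Cyp4f18, which inactivates leukotriene B4, was higher and Ltf, which the rule used, lower.

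Of 20 immediate early genes tested in the unmixed sets, Jun and Egr1 were higher and Fosl2 lower in Gzmb-cko, with a median log2 ratio of 0.08. Jun, a subunit of AP-1, stood at 261 CPM in poly(I:C) and 624 CPM in Gzmb-cko, 2.39-fold higher (1.68 to 3.35), with a UMI in 62 of 187 and 17 of 28 cells, and was also past the fold at the common floor, at 3.18-fold. The chemokine Cxcl2 stood at 257 and 789 CPM, 3.08-fold (2.23 to 4.21), with 22.6% of the 62 Gzmb-cko UMIs in 1 cell, and in saline it stood at 912 CPM on 21 UMIs. Egr1 was 1.94-fold higher (1.21 to 3.02), and Nfkbia, the inhibitor that NF-kB induces, 1.62-fold (1.05 to 2.44), though not past the fold at the common floor. Fosl2, also of AP-1, was 2.58-fold lower (1.27 to 6.11), on 126 and 8 UMIs, and was not past the fold there either. Ly6g stood at 234 and 420 CPM, 1.80-fold higher (1.18 to 2.67), on 112 and 33 UMIs. Hdc, which makes histamine, was 1.64-fold higher (1.13 to 2.32). Macrophage transcripts were past the fold in the same direction, with C1qb at 106 and 267 CPM and Apoe at 447 and 802 CPM, and erythroid markers summed to 1899 and 624 CPM. The part of this RNA in the other differences was not tested.

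Interferon-stimulated genes went both ways. Rtp4 stood at 148 and 306 CPM, 2.06-fold higher (1.24 to 3.32), and Irf7 and Slfn5 were higher on 9 and 11 Gzmb-cko UMIs. Ifitm1, an antiviral membrane protein, stood at 280 and 102 CPM, 2.75-fold lower (1.35 to 6.49), on 134 and 8 UMIs. Samhd1, which breaks down nucleotides that viruses need, was 1.51-fold lower (1.06 to 2.22). Of these 5 genes, Samhd1 had enough UMIs to be tested at the common floor, and it was 1.14-fold lower there and not past the fold.

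Other genes lower in unmixed Gzmb-cko cells included a secreted protein, an adhesive glycoprotein and an integrin. Wfdc17, a small secreted protein of activated phagocytes, stood at 330 and 76.4 CPM, on 158 and 6 UMIs in 41 of 187 and 3 of 28 cells, 4.32-fold lower (1.94 to 11.9) and 1.12-fold at the common floor. Thbs1, the adhesive glycoprotein thrombospondin 1, stood at 1377 and 853 CPM, 1.61-fold lower (1.25 to 2.11), and was past the fold at the common floor at 1.83-fold. Itgam, which encodes the CD11b chain used to purify the cells, was 1.51-fold lower (1.003 to 2.35), and 1.31-fold and not past the fold at the common floor. The class I gene H2-T24, which has close copies nearby, had 37 UMIs in poly(I:C), 0 in Gzmb-cko and 0 in saline. It was at least 2.02-fold lower in Gzmb-cko and had too few UMIs to be tested at the common floor. With 3 counts set for saline the ratio of poly(I:C) to saline was 0.593, so the saline 0 does not show a lower level. Mitochondrially encoded genes were higher in 5 of 11 tested in unmixed Gzmb-cko cells, median log2 ratio 0.64, and in 10 of 10 at the common floor, median 1.39. Median mitochondrial shares were 2.25% and 2.87% of a cell's UMIs, and the part of this difference in the other genes was not tested.

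Between poly(I:C) and saline, erythroid genes were among those lower in poly(I:C) when all members were counted. Among all members 1470 of 3901 genes were past the fold (37.7%), 1212 higher (31.1%) and 258 lower (6.61%) in poly(I:C), around a median log2 ratio of 0.44. With a total that leaves out S100, mitochondrial, ribosomal and hemoglobin genes, which shifts every log2 ratio by -0.58, it was 458 higher and 807 lower, and under TMM scaling 959 and 382. Among the named genes lower in poly(I:C) were Slc4a1, the anion exchanger of red cells, 9.20-fold (3.78 to 27.0), Fech, the last enzyme of heme synthesis, 5.24-fold (3.02 to 9.51), and the mitochondrial iron importer Slc25a37, 3.59-fold (2.60 to 5.01). By size Ube2l6, which attaches the ubiquitin-like Isg15, at 4.49-fold, and Fam220a, at 4.26-fold, stood between Fech and Slc25a37. Slc4a1, Fech and Slc25a37 had 0 UMIs in the 5 unmixed saline members. The members of saline held 34.9% and those of poly(I:C) 7.29% hemoglobin.

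Among the named genes higher in poly(I:C) were Adpgk, Padi4 and H2-T24, which the rule did not use. Adpgk, an ADP-dependent glucokinase, stood at 22.3 and 173 CPM, 7.75-fold higher (4.09 to 16.5). In unmixed cells it stood at 43.4 and 267 CPM on 1 and 128 UMIs, 6.15-fold (1.09 to 245). Gpr27, the first of the named genes by ratio, had 0 and 34 UMIs in unmixed cells and was not past the fold there. Padi4, the enzyme that citrullinates histones in neutrophil extracellular traps, stood at 6.69 and 60.1 CPM on 3 and 48 UMIs, 8.99-fold (2.90 to 45.1). H2-T24 had 0 and 43 UMIs, at least 8.05-fold. In unmixed cells Padi4 had 0 and 38 UMIs and H2-T24 had 0 and 37, and the shallow saline set gives no direction for either. Of the lists, 15 of 17 secondary granule genes were higher and 2 lower, median log2 ratio 1.70, 8 of 8 chemoattractant receptors were higher, median 1.46, and these counts include Ngp, Camp, Ltf, Mmp8 and Cxcr2, which the rule used. Ribosomal protein genes were higher in 0 and lower in 44 of 77, median -0.66. The markers Retnlg, Mmp9, Cxcr2 and Csf3r summed to 4220 CPM in saline and 15445 CPM in poly(I:C) over all members, and the part of this difference in these counts was not tested.

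Between unmixed cells the comparison rests on 5 saline cells, and most calls were lost without 1 of them. With all 5, 252 of 1844 genes were past the fold (13.7%), 94 higher (5.1%) and 158 lower (8.57%) in poly(I:C), around a median log2 ratio of 0.13. Without the saline cell of 7314 UMIs, left out after its values were seen, 61 of 1794 were past it (3.4%), 30 higher and 31 lower. Ribosomal protein genes were lower in poly(I:C) in 58 of 74 tested with that cell, median -1.27, and in 0 of 73 without it, median 0.02. Immediate early genes were higher in 7 of 20, with Fosl2, Klf2 and Klf6 among them, and in 2 of 20 without it, with medians of 0.98 and 0.76. Interferon-stimulated genes were past the fold in 0 of 22 either way, with a median log2 ratio of 0.54 with the cell and -0.01 without it. Among all members they were higher in 13 of 34, median 0.64, or 0.06 with the total that leaves out abundant genes.

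Mitochondrially encoded genes were a group that stayed lower in poly(I:C), in 8 of 11 tested with the cell, median -0.73, and in 11 of 11 without it, median -1.06. Chemoattractant receptors were past the fold in 0 of 8 with all 5 cells. At the common floor, with 43 and 5 unmixed cells, 174 of 696 genes were past the fold (25%), 69 higher (9.91%) and 105 lower (15.1%). There 10 of 14 secondary granule genes were higher and 0 of 15 immediate early genes were past the fold. The list of secondary granule genes holds Ngp, Camp, Ltf and Mmp8, which the rule used. Without the saline cell of 7314 UMIs and without the floor, 2 of 14 of them were higher and 1 lower, median log2 ratio 0.13.

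Gzmb-cko against saline differs in treatment and genotype at once. Among all members 968 of 2319 genes were past the fold (41.7%), 897 higher (38.7%) and 71 lower (3.06%), around a median log2 ratio of 0.62. Under TMM scaling it was 247 and 168, and with the total without abundant genes 139 and 232. Ly6g stood at 29 CPM in saline, 163 CPM in poly(I:C) and 194 CPM in Gzmb-cko, and the chemokine receptor Cxcr4, which retains neutrophils in the marrow, at 26.8, 105.2 and 148 CPM. In unmixed members Ly6g stood at 130, 234 and 420 CPM, on 3, 112 and 33 UMIs, and Cxcr4 had 0, 62 and 18 UMIs. Without mixed members 142 of 371 genes were past the fold (38.3%), 82 higher (22.1%) and 60 lower (16.2%), and at the common floor 89 of 207 (43%), 42 higher (20.3%) and 47 lower (22.7%).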

How the data were processed

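The authors deposited raw UMI counts per gene and barcode for 27998 genes, without normalization. Cell Ranger 5.0.0 stands in the file headers and 3.0.1 in the submitters' processing notes, which also list STAR and mm10. How barcodes were called cells is unstated there. Near-identical genes (stefins, H2 and ribosomal genes) are uncertain in such counts. UMIs of a class were added up within each library and given as CPM, and a gene at 0 was set to 3 counts for a bound. Intervals are exact at 95%, Poisson for levels, conditional binomial for ratios and Clopper-Pearson for shares. Named genes were the 12 largest ratios per direction (6 for Gzmb-cko over saline) among genes past the fold, in the same direction by mean per-cell CPM and by a total without abundant genes, with at most 20% of UMIs in 1 cell and a UMI in at least 10% of cells. Marker, sex-linked, mitochondrial, ribosomal, hemoglobin and predicted genes and those of the rule were left out. The ranking in unmixed cells, the Retnlg limit and the mixed-cell measures came after the data were seen, and members and lists were chosen with earlier results of these data known. Doublets were scored with Scrublet in scanpy 1.11.5. TMM factors came from edgeR 4.0.16, used for scaling only. The calculation was tested on simulated data. Symbols and positions are those of the files and of GENCODE vM21. Results for some genes are not reported here.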

Additional observations from a re-analysis of the deposited data

How the results depend on the processing

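No paired analysis was possible because each group has 1 library. The share of mature neutrophils among kept cells was 0.327% in saline with at least 3 maturity markers required and 0.0398% without mixed members, at both floors. In poly(I:C) it was 0.944% with the saline UMI floor, 2.30% with at most 5% mitochondrial UMIs, 1.60% without mixed members and 0.501% with both changes. In Gzmb-cko it was 0.238%, 0.201% without mixed members and 0.0766% with both. The mature share of all neutrophils was 19.7% in saline with at least 3 markers and 4.17% without mixed members, at both floors. In poly(I:C) it was 32.3% with the floor, 50.1% and 61.5% with the granule sum under 10 and under 40 UMIs, and 21.6% without mixed members and with the floor. In Gzmb-cko it was 34.1% with the floor and 15.8% with both.

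Genes past the fold for poly(I:C) over saline, 1470 as reported, numbered 871 with the floor, 2364 by mean per-cell CPM, 740 with cells thinned to 2000 UMIs, 780 with at least 100 UMIs per gene, 252 without mixed members and 174 with the floor as well. For Gzmb-cko over poly(I:C), 639 as reported, they numbered 345 with at least 3 markers, 1400 by mean per-cell CPM, 262 thinned, 331 with 100 UMIs, 334 at a fold of 2, 124 without mixed members and 80 with the floor as well. For Gzmb-cko over saline, 968 as reported, they numbered 371 without abundant genes in the total, 415 under TMM scaling, 232 thinned, 376 with 100 UMIs, 597 at a fold of 2, 142 without mixed members and 89 with the floor as well. For mature over immature cells, 347 as reported, they numbered 230 without high doublet scores, 182 at a fold of 2 and 139 without mixed members. The cause was not tested, beyond fewer genes or cells entering where a filter was stricter.

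Of named genes, the log2 ratio of Dfna5, poly(I:C) over saline, went to -0.057 without mixed members, on 2 and 40 UMIs. The log2 ratio of Plac8, Gzmb-cko over poly(I:C), went to -1.945 without mixed members and to -2.655 with the floor as well. Of the other gene values under the alternatives run, 695 kept their direction past the fold and 19 kept their direction but were no longer past it. A gene under the UMI filter in an alternative has no value in these counts. Among such genes without mixed members, Arhgap12 in poly(I:C) over saline had a ratio of 0.481, on 2 and 20 UMIs, and Xrn2 in Gzmb-cko over poly(I:C) 0.872, on 7 and 1 UMIs. The depth of unmixed members, 23034 UMIs in saline and 78526 in Gzmb-cko, limits every gene under about 100 CPM there to a few counts.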
